A study of Mus musculus with 32 samples.

Results

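H3K9me3 peaks near the centromeric ends of mouse chromosomes were examined in male germ cells with and without functional Morc1. The members are the peaks of the 8 deposited peak lists that lie on autosomes 1 to 19 and have their midpoint below 8 Mb. They number 27301 peak entries over the 8 lists, of 611609 deposited in all, and make up 4.69% of the autosomal entries. By stage from E13.5 to P3, the het lists contributed 2594, 3466, 3841 and 3574, and the KO lists 2749, 3338, 4047 and 3692. The midpoint nearest to the edge from inside was at 7999963 on chromosome 16, and the nearest outside was at 8001586.5 on chromosome 3. Because the first 3 Mb of each autosome hold no peak in any list, the stretch studied on each autosome is the 5 Mb from 3 to 8 Mb, called the centromeric window here. The 19 windows sum to 95 Mb, and the rest of the autosomes, up to the last called base, to 2308 Mb.

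Mouse chromosomes carry their centromere at one end. Next to it lie long arrays of satellite repeats that the reference assembly does not spell out and that form a classic block of constitutive heterochromatin marked by trimethylation of lysine 9 on histone H3. The windows begin where assembled sequence begins, so they are the nearest sequence to those blocks in which peaks can be placed. Away from the satellites, H3K9me3 in germ cells is known for marking retrotransposons, clustered gene families and imprinted loci. MORC1 is a nuclear ATPase of the male germline known for its part in transposon silencing.

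The cells were male germ cells from testes of Mvh-Venus transgenic mice, in which a fluorescent protein marks germ cells. The stages were 2 embryonic ones, E13.5 and E16.5, named by days of gestation, and the day of birth (P0) and day 3 after it (P3). Runs of 4 values follow the stages in that order. At each stage the animals were Morc1 (+/-), called het, or Morc1 (-/-), called KO; no wild-type group enters the comparison, and both genotypes carried the transgene. Each of the 8 groups has 2 H3K9me3 samples and 2 samples with an antibody against histone H3, but only 1 H3K9me3 list per group was used, with no replicate named. The lists give positions and no heights, so neither the genotype nor the cell type could be checked from them. With 1 list per group no spread between replicates exists, no test was made between groups, and read depth is unknown.

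The promoters below show the kinds of pattern found in the windows. They were picked after their values were seen, from RefSeq (GRCm38.p6, 250 bases before to 50 after the gene's start, written in the direction of the gene), with CpG dinucleotides in capitals. Cd209e (chr8:3854237-3854536, minus strand), encoding a C-type lectin, and Slc22a26 (chr19:7802618-7802917, minus strand), encoding an organic anion transporter, lay in a peak in all 8 lists. Akr1c6 (chr13:4434093-4434392, plus strand), encoding a hydroxysteroid dehydrogenase, lay in a peak in the 6 lists from E16.5 on. Nlrp2 (chr7:5350986-5351285, minus strand), encoding an NLR-family protein, did so only in the 4 embryonic lists. The Hmox2 start shown (chr16:4756696-4756995, plus strand; heme oxygenase) lay in a peak in het and not in KO at P0 and P3. Akap9 (chr5:3927936-3928235, plus strand; a scaffold of the centrosome and Golgi) was in no peak.
Cd209e promoter: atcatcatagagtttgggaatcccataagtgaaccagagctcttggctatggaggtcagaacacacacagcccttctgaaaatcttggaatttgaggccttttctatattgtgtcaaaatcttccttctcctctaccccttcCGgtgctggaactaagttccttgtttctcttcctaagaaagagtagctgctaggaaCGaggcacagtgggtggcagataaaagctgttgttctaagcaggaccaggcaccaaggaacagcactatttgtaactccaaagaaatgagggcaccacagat
Slc22a26 promoter: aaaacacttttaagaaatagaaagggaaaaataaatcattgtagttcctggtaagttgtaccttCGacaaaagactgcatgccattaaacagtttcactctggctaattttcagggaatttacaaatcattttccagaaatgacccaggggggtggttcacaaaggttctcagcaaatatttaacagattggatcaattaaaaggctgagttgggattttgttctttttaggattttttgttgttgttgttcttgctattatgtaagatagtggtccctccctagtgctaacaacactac
Akr1c6 promoter: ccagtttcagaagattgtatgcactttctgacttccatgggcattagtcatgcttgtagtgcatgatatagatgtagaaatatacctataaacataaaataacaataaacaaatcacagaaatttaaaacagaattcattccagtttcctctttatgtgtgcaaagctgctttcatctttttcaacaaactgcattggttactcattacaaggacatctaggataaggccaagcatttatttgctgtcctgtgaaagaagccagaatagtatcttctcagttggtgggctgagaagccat
Nlrp2 promoter: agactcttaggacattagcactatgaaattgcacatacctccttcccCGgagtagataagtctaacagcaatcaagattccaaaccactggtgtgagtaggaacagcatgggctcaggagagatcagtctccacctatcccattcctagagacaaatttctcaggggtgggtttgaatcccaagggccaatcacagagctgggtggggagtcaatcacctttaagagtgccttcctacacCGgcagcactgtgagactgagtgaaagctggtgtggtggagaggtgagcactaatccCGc
Hmox2 promoter: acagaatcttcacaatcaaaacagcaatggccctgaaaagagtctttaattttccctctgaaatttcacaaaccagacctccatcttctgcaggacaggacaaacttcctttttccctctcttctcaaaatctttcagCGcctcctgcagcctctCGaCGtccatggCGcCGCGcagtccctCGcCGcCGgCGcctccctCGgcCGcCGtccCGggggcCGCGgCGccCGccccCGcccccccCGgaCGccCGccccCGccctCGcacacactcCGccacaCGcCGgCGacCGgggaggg
Akap9 promoter: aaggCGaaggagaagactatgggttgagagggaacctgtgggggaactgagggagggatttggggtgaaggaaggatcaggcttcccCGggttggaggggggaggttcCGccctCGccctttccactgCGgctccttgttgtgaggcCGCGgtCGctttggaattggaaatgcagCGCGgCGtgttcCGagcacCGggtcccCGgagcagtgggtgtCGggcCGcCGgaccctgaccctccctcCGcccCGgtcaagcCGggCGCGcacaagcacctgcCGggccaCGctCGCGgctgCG
These 6 sequences differ in CpG number. Cd209e has 2, Slc22a26 has 1, Akr1c6 has 0 and Nlrp2 has 3, against 29 at the Hmox2 start and 27 at Akap9.

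In all 8 lists the centromeric windows were more densely covered by peaks than the rest of the autosomes. At E13.5, peaks covered 8.83% of the windows and 6.56% of the rest in het, and 10.3% and 7.46% in KO. At E16.5 the shares were 14.7% and 12.1% in het and 13.6% and 11.1% in KO. At P0 they were 17.0% and 12.7% in het and 17.0% and 13.3% in KO. At P3 they were 14.3% and 11.5% in het and 15.0% and 12.5% in KO. The ratio of window to rest ranged from 1.19 in the P3 KO list to 1.38 in the E13.5 KO list, and its median over the lists was 1.26. More peaks per Mb accounted for more of the excess than longer peaks did in every list: peak density was 1.14 to 1.32 times, and mean peak length 1.02 to 1.12 times, that of the rest.

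The excess extended past the windows. Between 5 and 10 Mb from the 3 Mb position, 16.9% of sequence was covered in the P0 het list and 17.6% in the P0 KO list. Between 10 and 20 Mb the P0 het list covered 17.8%, and beyond 20 Mb it covered 12.01%. The E13.5 het list covered 8.82% at 5 to 10 Mb, 9.52% at 10 to 20 Mb and 6.17% beyond. The other end of the autosomes was different. The last 5 Mb were covered to 4.89% in the E13.5 het list and 10.4% in the P0 het list, both below the value beyond 20 Mb. Within the 10 to 20 Mb zone coverage was uneven. In the P0 het list it was 18.5% from 10 to 16 Mb, 20.7% from 16 to 18 Mb and 12.8% from 18 to 20 Mb, the last close to the rest, so the higher coverage was not limited to the windows and had ended by 18 Mb.

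**Figure D1:**
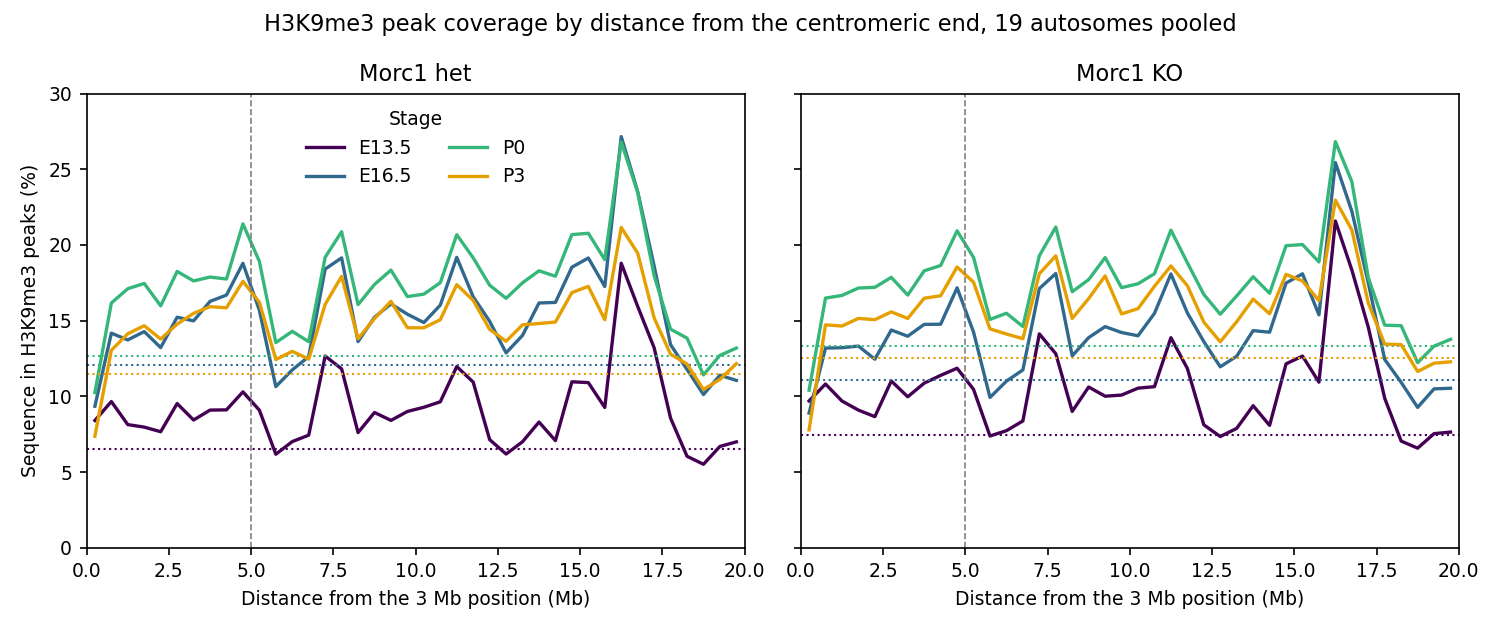
Share of sequence in H3K9me3 peaks (vertical axis, %) against distance from the 3 Mb position (horizontal axis, Mb, in steps of 0.5 Mb), with the 19 autosomes pooled; each line is 1 list, dotted lines give the rest of the autosomes for the same list and the dashed line is the edge of the window at 5 Mb. The first step, which includes sequence with no call in any list, is low in the 6 lists from E16.5 on. High coverage goes on past the dashed line.

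Pooled over the autosomes, the innermost 0.5 Mb did not share the rise of the remainder of the window. Over the first 0.5 Mb the het lists covered 8.41%, 9.35%, 10.3% and 7.37%, and the KO lists 9.70%, 8.90%, 10.4% and 7.79%. From 0.5 to 5 Mb the het lists covered 8.88%, 15.3%, 17.7% and 15.0%, and the KO lists 10.4%, 14.1%, 17.8% and 15.8%. The ratio of P3 to E13.5 coverage was 0.876 in het and 0.803 in KO over the first 0.5 Mb, against 1.69 and 1.52 in the remainder of the window. In het, chromosomes 3 and 9 carried that fall: without both, a choice made after the data had been seen, the ratio was 1.04. In KO it was still below 1 without them, at 0.926. Without chromosome 18 as well the ratio was 1.183 in het and 1.05 in KO. Coverage of this innermost stretch was unevenly shared among the autosomes. On chromosome 3 it was 40.2%, 40.3%, 40.4% and 26.1% in het, and on chromosome 9 it was 31.8%, 30.3%, 28.3% and 22.4%. Chromosomes 14 and 16 had no called base there in any list. Stretches of at least 100 kb with no call in any list began at the 3 Mb position on chromosomes 4, 6, 10, 11, 12, 14, 15, 16 and 19. They stayed in the denominator, so they lower the shares of this step in every list. Of the 17 autosomes with called sequence there, coverage was higher at P3 than at E13.5 on 7 in het (1, 2, 6, 8, 11, 15 and 17) and on 8 in KO (the same and 10). On chromosome 1 the het value was 8.52%, 18.5%, 22.8% and 19.1%.

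The 19 windows differed widely from each other. The highest was chromosome 3 in every list, with 21.3%, 37.6%, 38.7% and 27.7% in het and 23.7%, 34.4%, 36.4% and 27.8% in KO. The lowest was chromosome 14 in every list, from 0.0377% in the E13.5 het list to 0.675% in the P0 KO list. The window was above the rest of its own chromosome in all 8 lists on 10 autosomes (1, 3, 4, 5, 8, 9, 11, 12, 13 and 18) and below it in all 8 on 5 autosomes (6, 14, 16, 17 and 19). The other 4 (2, 7, 10 and 15) were above in some lists and below in others. By list, 11 to 14 of the 19 windows were above. With the edge set at 5 Mb in place of 8 Mb the counts were 7 to 10, and both E16.5 lists went from 11 to 7. Without chromosome 3 the pooled window to rest ratio was lowest, with a median of 1.20 over the lists.

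**Figure D2:**
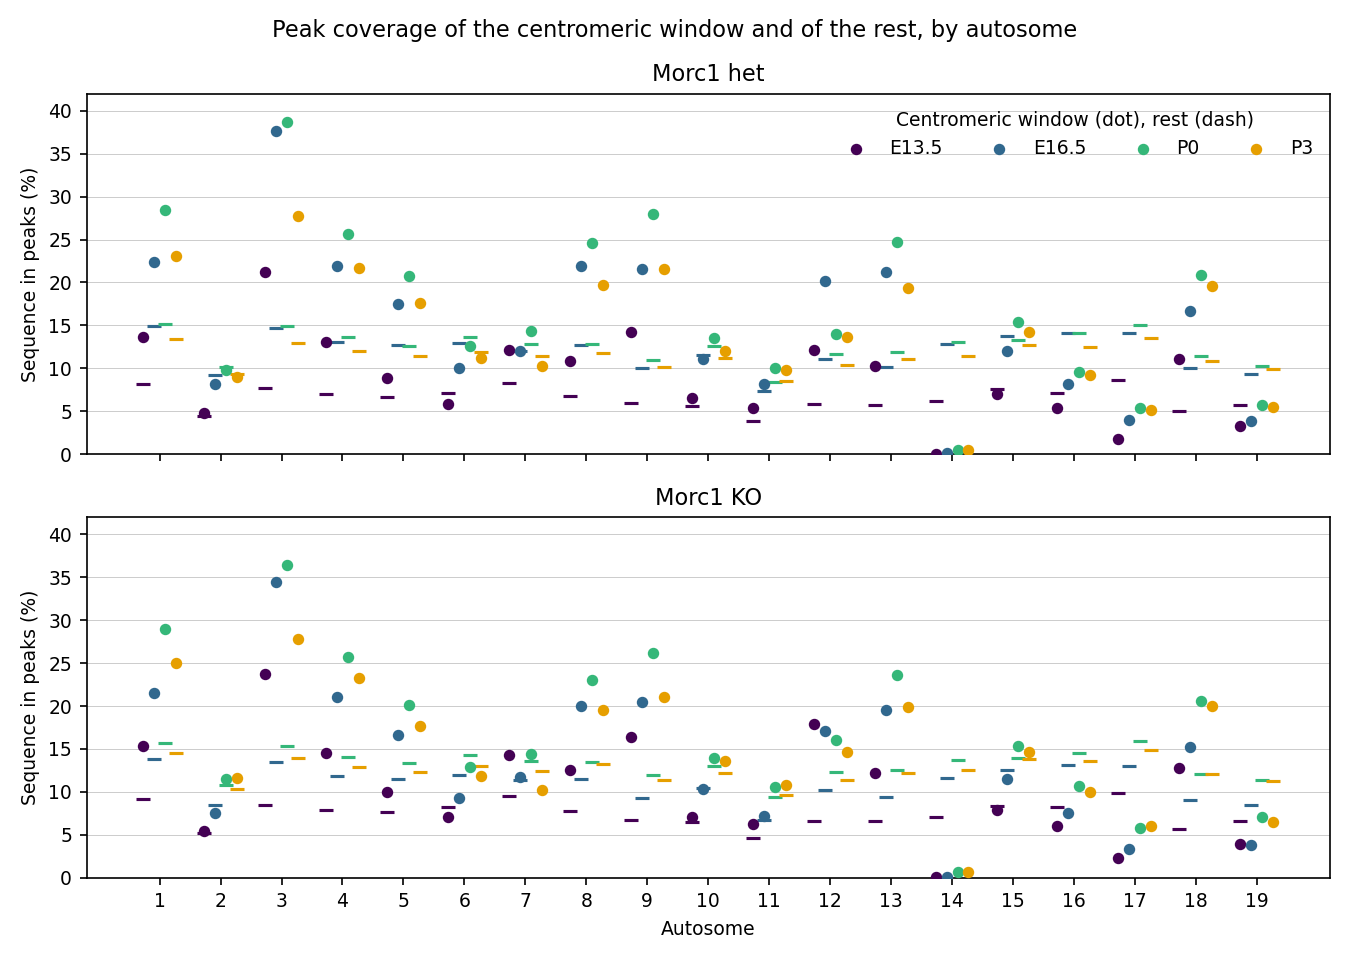
Share of sequence in H3K9me3 peaks (vertical axis, %) on each of the 19 autosomes (horizontal axis), het above and KO below; dots are the centromeric windows and dashes the rest of the same autosome, coloured by stage, 1 list each. Chromosome 3 stands highest in every list and chromosome 14 close to 0.

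Set among all 471 windows of 5 Mb along the autosomes, 13 to 16 of the 19 centromeric windows were above the median of the other 452, and 8 to 10 were above their upper quartile. In each list 3 centromeric windows were below the lower quartile. Windows farther along the chromosomes reached higher values than chromosome 3 did, 13 of them in the E13.5 het list and 1 in the P0 het list. Covered share and the number of protein-coding gene starts went in opposite directions. Spearman's rho over the 471 windows was -0.25 to -0.53, and over the 19 centromeric windows it was -0.66 to -0.85. The windows share their libraries, and repeat content and mappability were not measured here. Gene number was about the same in both regions, at 9.15 protein-coding genes per Mb in the centromeric windows and 8.53 in the rest.

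Peaks of at least 10 kb held 27.6% to 49.8% of the covered length in the chromosome 3 window and 33.3% to 72.9% in that of chromosome 12, by list, against 18.7% to 27.4% over all windows. On chromosome 12 the sequence between Klhl29 and Apob, the gene of the main protein of low-density lipoprotein, carried the longest window peak of the E13.5 KO (chr12:6706479-6771392, 64.9 kb), E16.5 het and E16.5 KO (67.5 kb) lists. In the 0.5 Mb that begins 3.5 Mb from the 3 Mb position, peaks covered 262, 337, 245 and 235 kb in het and 342, 322, 282 and 233 kb in KO at the 4 stages. In this step the E13.5 het value was thus well below that of KO, and the P3 values were alike. In the next 0.5 Mb peaks covered 157, 310, 132 and 131 kb in het and 272, 220, 187 and 160 kb in KO. There KO was higher at E13.5, P0 and P3, and het was higher at E16.5. On chromosome 3, ahead of Hnf4g, a nuclear receptor gene of gut and kidney, the longest peak of the E13.5 het list (chr3:3187365-3236240, 48.9 kb) was covered over 48.8 kb in the E13.5 KO list and over 23.1 and 25.5 kb in the P3 het and KO lists. Between Bpnt2 and Fam110b on chromosome 4 the order was reversed. The 31.1 kb of the longest P3 het peak (chr4:5112198-5143317) were covered over 2.3, 13.52 and 26.8 kb at the first 3 stages in het, and over 2.38, 15.7 and 29.2 kb in KO. At P0 the longest peaks lay on chromosome 13 between Pfkp and Adarb2 in het (44.7 kb) and on chromosome 9 between Pdgfd and Dync2h1 in KO (37.9 kb).

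**Figure D3:**
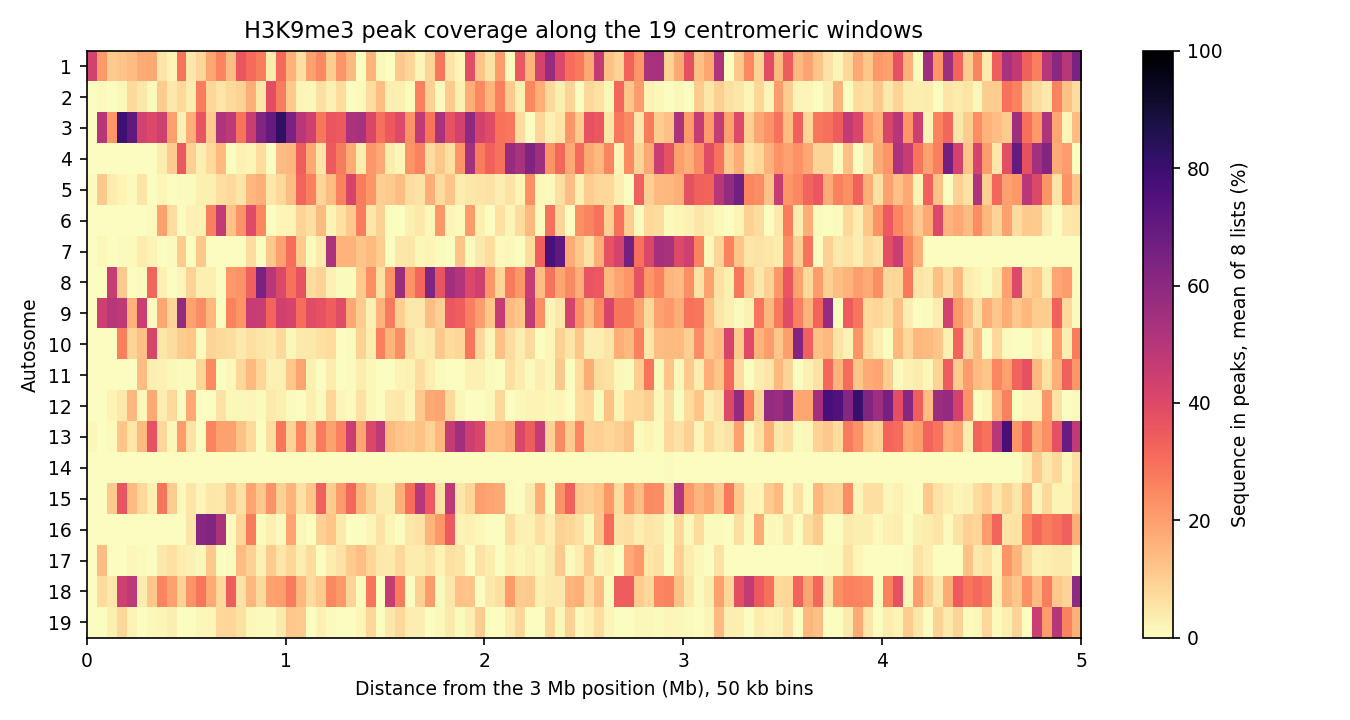
Share of each 50 kb bin in peaks (colour, %, mean of the 8 lists) along the 5 Mb windows of the 19 autosomes (rows), with distance from the 3 Mb position on the horizontal axis. Chromosome 3 is dark over most of its first 2 Mb, chromosome 12 from about 3 Mb, and chromosomes 14 and 7 show the long blank stretches.

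Some sequence was covered at every stage in both genotypes. The intersection of the 8 lists came to 5.13 Mb in the windows, 5.40% of their length, against 4.03% in the rest. Chromosome 3 held 12.5% of it. The longest such interval was 27.5 kb over Slc22a26 (chr19:7778868-7806382), followed by 26.2 kb between Olfr161 and Mefv (chr16:3634265-3660477). The next were 23.1 kb between Klhl29 and Apob (chr12:6747737-6770811) and 21.2 kb between Hnf4g and Zfhx4 (chr3:3975934-3997111). Of the 1 kb bins called in any list, where a called bin is one with 50% or more inside peaks, 22.1% of window bins (95% Wilson interval 21.5% to 22.6%) and 19.8% of the other bins were called in all 8. Such intervals cover counting error only and treat neighbouring bins or peaks as independent, which they are not. Bins called only after birth made up 29.5% of window bins and 31.2% of the others, and bins called only in the embryo 10.5% and 13.2%.

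Window peaks were longer than other peaks at the median in every list. The het medians were 2126, 2686.5, 2935 and 2765.5 bp in the windows and 1847, 2381, 2464 and 2545 bp in the rest. The KO medians were 2305, 2657.5, 2717 and 2779.5 bp in the windows and 1887, 2358, 2336 and 2565 bp in the rest. Fewer window peaks had the most common length of 1001 bp: 18.9% against 22.7% in the E13.5 het list and 12.99% against 14.8% in the P0 het list. Peaks of at least 10 kb were 7.81% of window peaks in the P0 het list (interval 7.003% to 8.70%) and 5.87% of the rest. At E13.5 het the order was the other way, 3.86% (3.18% to 4.67%) and 4.48%.

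The windows gained coverage less than the rest between E13.5 and E16.5, gained more to P0 and lost more to P3. In het the covered length in the windows was 8.39, 13.9, 16.1 and 13.6 Mb at the 4 stages, and in KO 9.79, 12.9, 16.2 and 14.2 Mb. From E13.5 to E16.5 it changed 1.66-fold in het and 1.32-fold in KO, against 1.84 and 1.49 in the rest. From E16.5 to P0 it changed 1.16-fold and 1.25-fold, against 1.05 and 1.20. From P0 to P3 it changed 0.840-fold and 0.879-fold, against 0.903 and 0.941. The first and last steps were not particular to the windows, since the zones next to them also lay below the pooled rest. From E13.5 to E16.5 the zone at 5 to 10 Mb changed 1.69-fold in het and 1.37-fold in KO. The zone at 10 to 20 Mb changed 1.70-fold and 1.38-fold. From P0 to P3 the first of these zones changed 0.876-fold and 0.923-fold, and the second 0.841-fold and 0.899-fold. The last step was down on all 19 windows in het and on 16 of 19 in KO. Chromosome 7 had the lowest ratio at the first step, 0.997 in het and 0.820 in KO. Its coverage was 12.1%, 12.1%, 14.4% and 10.3% in het, and 14.3%, 11.8%, 14.4% and 10.2% in KO. Chromosome 14 aside, chromosome 17 had the largest ratio of P3 to E13.5, 2.90-fold in het and 2.64-fold in KO, from one of the lowest levels.

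The KO list covered more window sequence than the het list at E13.5 and less at E16.5, and the genotypes were close at P0. The ratio of KO to het covered length was 1.17, 0.928, 1.00 and 1.05. In the rest of the autosomes it was 1.14, 0.918, 1.05 and 1.09. KO was above het on 19, 1, 12 and 16 of the 19 windows at the 4 stages, and on 19, 0, 19 and 19 of the same autosomes outside the windows. The exception at E16.5 was chromosome 14, with 0.123% in het and 0.154% in KO. Chromosome 12 had the widest gap at E13.5, with a ratio of 1.47, and without it the pooled ratio at E13.5 was 1.14. At P0 the lowest ratio was 0.934 on chromosome 8 and the highest 1.25 on chromosome 19. These extremes leave out chromosome 14, whose window holds too little called sequence for a ratio, a choice made after its values were seen. Keeping the same number of longest peaks in both lists of a stage put the P0 ratio at 0.986, on the other side of 1. At P0 this removed peaks from the longer KO list only, so the ratio could only fall.

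The smaller KO excess after birth went with the coverage of a window and was seen along whole chromosomes. Over 470 windows of 5 Mb with at least 1% covered in both genotypes, Spearman's rho between the KO to het ratio and mean coverage was -0.57, 0.13, -0.67 and -0.54. Over the 18 centromeric windows among them it was -0.28, 0.09, -0.79 and -0.65. The points share their libraries, and coverage enters both axes. At P0 the ratio was below 1 in 7 of 18 centromeric windows and in 25.4% of the others. Among the 47 windows with the highest coverage anywhere, from 19.1% up, 27 were below 1 at P0 and their median ratio was 0.987. Depth and threshold of the lists were not given, and their part in these ratios was not tested.

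**Figure D4:**
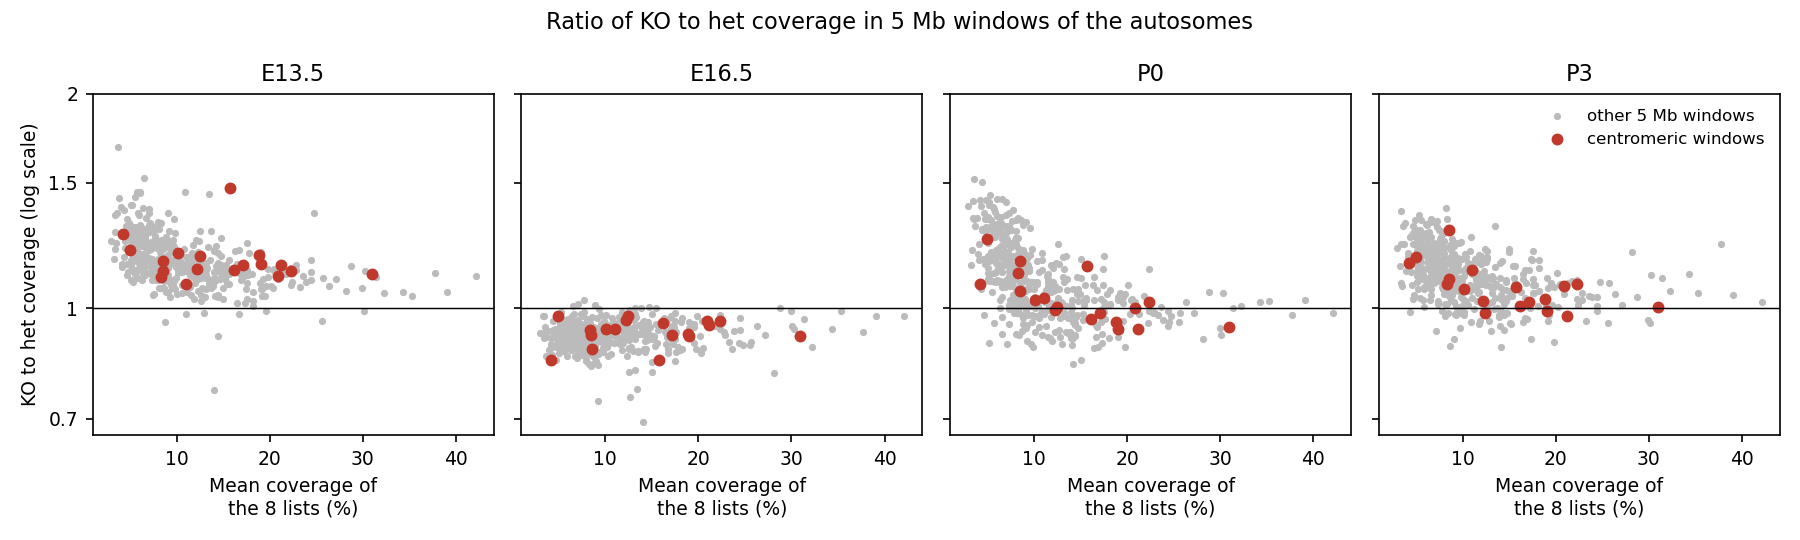
Ratio of KO to het covered share (vertical axis, log scale) against the mean covered share of the 8 lists (horizontal axis, %) for 5 Mb windows of the autosomes, by stage; red points are 18 centromeric windows and grey points the others, and the line marks a ratio of 1. Centromeric windows lie within the cloud of the others at each stage, apart from the chromosome 12 window at E13.5 with a ratio of 1.47.

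Peaks present in 1 genotype only were mostly short, and their share was lower in the windows than elsewhere in all 8 lists, narrowly so for het at P0. A peak counted as unmatched when no peak of the other genotype at the same stage shared 1 bp with it. Among het peaks, 7.86%, 11.2%, 10.7% and 12.1% of window peaks were unmatched, and the shares over all autosomal peaks were 11.4%, 13.6%, 11.6% and 13.7%. Among KO peaks the window shares were 17.1%, 5.54%, 15.5% and 16.6%, and over all autosomal peaks 21.5%, 6.72%, 19.6% and 20.6%. For het at P0 the window interval, 9.76% to 11.7%, included the share of all peaks. Window peaks were also longer, and the part of length in this comparison was not tested. Under 2 kb the P0 het share was 18.98% in the windows and 17.8% in the rest. At 3 kb or more the E16.5 KO share was 0.337% and 0.178%. Otherwise the window share was the lower one in both length classes. The median length of unmatched window peaks was 1001 bp at both embryonic stages in both genotypes. The postnatal order of the genotypes turned when only the longest peaks were kept, in the same number for both lists of a stage. After birth the het list was the shorter one, so this removed the shortest peaks from KO only. The het share could then only rise. Most unmatched KO window peaks were under 2 kb, 580 of 628 at P0 and 517 of 612 at P3. The turn therefore cannot decide which genotype had the larger share. Then the window shares were 13.1% in het and 12.1% in KO at P0, and 14.5% and 13.8% at P3.

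**Figure D5:**
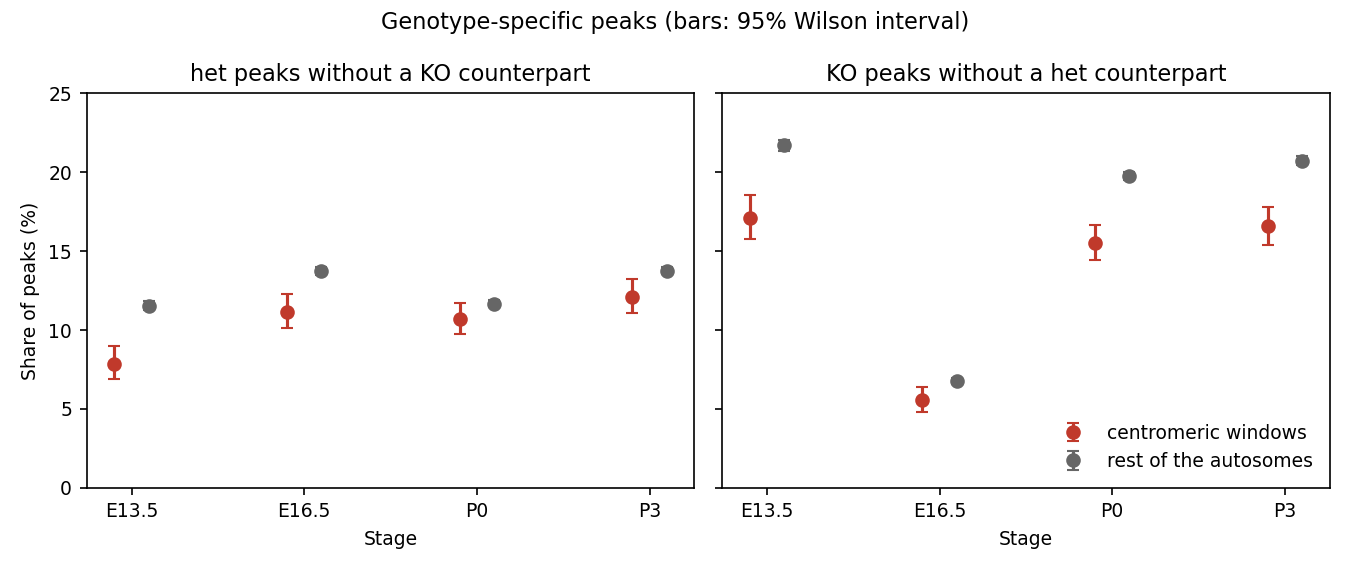
Share of peaks without a counterpart in the other genotype (vertical axis, %) at each stage (horizontal axis), for het peaks on the left and KO peaks on the right; red points are window peaks, grey points peaks of the rest of the autosomes, and bars are 95% Wilson intervals. Window shares are lower throughout, from 7.86% against 11.5% for het at E13.5 to 16.6% against 20.7% for KO at P3. For het at P0 the bars of windows and rest overlap.

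Long unmatched peaks were more often het than KO after birth. Of window peaks of at least 3 kb, 94 of 1897 het peaks (4.96%) had no KO counterpart at P0 and 66 of 1649 (4.002%) at P3. In the other direction 15 of 1831 KO peaks (0.819%) and 24 of 1701 (1.41%) had no het counterpart. In the embryo the counts were 2 of 892 (0.224%) and 9 of 1580 (0.570%) in het and 13 of 993 (1.31%) and 5 of 1483 (0.337%) in KO. After birth the rest of the autosomes showed the same order as the windows, with 5.89% and 5.37% in het and 1.30% and 2.37% in KO. In the embryo the shares of the rest were 0.544% and 0.985% in het and 1.79% and 0.178% in KO. The longest example at P3 was a 10.6 kb peak between Kbtbd3 and Msantd4 (chr9:4353952-4364508). It was covered over 10.6 kb in the P0 het and P3 het lists, over 1.26 kb in the P0 KO list and not at all in the P3 KO list or in the embryo. At P0 it was a 9.31 kb peak between Akr1c12 and Akr1c6 (chr13:4352305-4361618), covered over 2.65 kb in the P3 het list and uncalled in both postnatal KO lists. In the embryo this interval was covered over 0 and 1.00 kb in het and over 2.38 and 1.21 kb in KO. The longest KO-only peak at P3, of 8.13 kb (chr2:3750138-3758271), lay over Fam107b.

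The genotype difference recurred from P0 to P3. Of window bins called in 1 genotype only at both stages, 985 were het-only at both, 623 KO-only at both, and 107 and 95 changed direction, so that 88.8% kept their direction. In the rest of the autosomes 88.1% did. The het share of the bins that kept direction was 61.3% in the windows and 54.0% in the rest. Chromosome 3 gave 123 het-only and 32 KO-only bins, chromosome 9 gave 100 and 34, and chromosome 8 gave 95 and 30, whereas chromosome 2 gave 21 and 50. Of window bins called in 1 genotype only at both embryonic stages, only 34.3% kept direction, with 191 that were KO-only at E13.5 and het-only at E16.5.

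Few promoters lay in window peaks, and those that did were poor in CpG. The 1269 window promoters used came from 18 autosomes, since those of chromosome 18 were not used here, and a promoter counted as in a peak when at least 150 of its 300 bases were covered. In het 37, 53, 71 and 54 did at the 4 stages (2.92%, 4.18%, 5.60% and 4.26%), and in KO 46, 49, 63 and 56 (3.62%, 3.86%, 4.96% and 4.41%). Over all autosomal promoters the het shares were 3.93%, 4.84%, 5.25% and 4.92%, and the KO shares 5.29%, 4.43%, 6.09% and 5.79%. A peak of all 8 lists covered 15 window promoters of 13 genes, 1.182% of them against 1.65% of all autosomal promoters. Their median CpG number was 2, against 9 for window promoters in no peak. In the rest of the autosomes the medians were 1 and 8. The 13 genes included Cd209a and Cd209e, Slc22a26, Olfr161 (an olfactory receptor), Mmp10 (a matrix metalloproteinase), Syne1 (a nuclear envelope protein) and an upstream start of Hmox2.

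The stage and genotype patterns among promoters rested on single genes. Promoters in all 4 embryonic lists and no postnatal list numbered 4 (0.315% of window promoters, 0.143% of all): Cd209d, Gm39124, Nlrp2 and the pheromone receptor gene Vmn1r59. The peak over the Nlrp2 start was 5.26 and 5.34 kb long at the embryonic stages in het, and 5.61 and 3.77 kb in KO. Promoters in all 4 postnatal lists and no embryonic list were also 4 (0.497% of all): Gm34488, Gm36906, Gstp3 (a glutathione transferase) and Mark2 (a polarity kinase). Those in every list except the E13.5 pair were 6 (0.615% of all): Akr1c21, Akr1c6, Gm3213, Gm41255, Mmp12 and Npc1l1, the intestinal cholesterol transporter. Those in het and not KO at P0 and P3 were 7, of 6 genes (0.214% of all): 4930481A15Rik, Gm29854, Gm40662, Gm41519, Hmox2 and Lair1. In the opposite direction 5 were found (0.437% of all): C9, a terminal complement component, Gm16311, Gm30663, Gm35925 and Gm41414.

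At Hmox2 the difference was one of peak extent. The het peak ran over the CpG-rich start printed above at P0 (chr16:4750411-4760319, 9.91 kb) and at P3 (chr16:4750451-4759050, 8.60 kb). In the KO lists the peak at the same place ended upstream of it, at 4754487 at P0 and at 4755557 at P3. In the embryo it ended upstream in both genotypes, at 4753106 and 4754621 in het and at 4753047 and 4754907 in KO. The upstream start of the same gene, with 0 CpG, was in a peak in all 8 lists.

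Fewer gene bodies held called sequence in the windows than elsewhere, but the covered share of gene bodies was higher in the windows in all 8 lists. Of 869 protein-coding genes that start in the windows, 424 (48.8%) had called sequence in at least 1 list, against 56.7% of the other autosomal genes. The count includes 45 and 31 protein-coding genes in long stretches of chromosome 14 with no call in any list. Covered share was 7.33% for window genes and 6.09% for the others in the P0 het list, and 8.48% and 7.86% in the P3 KO list. Coverage was longer in het at all 4 stages in 6 genes (0.6904%), against 0.632% of all autosomal genes. It was longer in KO at all 4 in 33 (3.797%), against 3.06%. The 5 het genes with the steadiest gap were Alkbh8, a tRNA modification enzyme, 4921524L21Rik, Pttg1ip2, Itsn2, an endocytic scaffold, and Sdr16c5, a retinol dehydrogenase. In Pttg1ip2 the het lists covered 1.26, 3.56, 7.72 and 6.57 kb at the 4 stages and the KO lists 1.00, 1.51, 5.09 and 3.20 kb. In 4921524L21Rik they covered 1.95, 3.66, 9.92 and 11.0 kb, and the KO lists 1.69, 3.13, 8.50 and 4.49 kb. The gap in Sdr16c5 was as small as 0.038 kb at P3.

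The 5 KO genes were Akap9, Akr1c20, Pcmtd1, Armt1 and Atp6v1h. In Akap9, whose CpG-rich promoter was never called, the het lists covered 11.0, 19.5, 24.7 and 31.5 kb of a 152 kb gene and the KO lists 15.0, 23.7, 26.2 and 42.4 kb. In Akr1c20, an aldo-keto reductase gene, they covered 2.39, 10.3, 14.01 and 8.30 kb, and the KO lists 4.44, 12.1, 16.4 and 9.41 kb. Armt1, a carboxyl methyltransferase gene, had 3.75, 1.00, 0 and 0 kb in het and 5.97, 2.002, 2.46 and 3.12 kb in KO. Gaps in Atp6v1h, a subunit of the proton pump of lysosomes, were of the size of single short peaks.

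More genes had gained than lost coverage by P3, and the P3 lists were also longer as a whole. Coverage was longer at P3 in both genotypes in 218 window genes (25.1%), against 28.7% of all autosomal genes, and shorter in 54 (6.21%), against 7.6%. The largest gains were in long genes: Zfp804b (a zinc finger gene) by 57.0 kb in het and 48.9 kb in KO, Xkr4 by 46.4 and 47.8 kb, St18 by 39.5 and 53.0 kb, Rbfox1 (a neuronal splicing regulator) by 39.3 and 52.7 kb, and Mpp7 by 36.1 and 47.4 kb. In Zfp804b the het lists covered 41.9, 125.1, 135.2 and 99.0 kb. The largest losses were in Slc22a27, Pcmtd1, Cul2 (a scaffold of ubiquitin ligases), Nlrp2 and Vmn1r63. Pcmtd1 had 18.99, 8.04, 3.51 and 3.61 kb in het and 20.1, 10.1, 4.97 and 4.86 kb in KO, and Cul2 had 18.8, 13.2, 4.31 and 4.15 kb in het and 23.1, 8.57, 4.75 and 4.23 kb in KO. Their decline was thus nearly complete by P0.

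The gene bodies with the largest covered shares, among genes of at least 5 kb, were those of Slc22a26, 5 Cd209 genes, Nlrp2, Akr1c6, Vmn1r63 and Peg10. Slc22a26 was covered to 100% in every list, and its neighbour Slc22a27 to 33.8% on average. On chromosome 8 the Cd209 lectin genes had mean shares of 95.9% (Cd209e), 84.5% (Cd209d), 81.5% (Cd209b), 76.4% (Cd209a) and 54.1% (Cd209c). The peak over the Cd209e start was 3.33, 40.9, 18.2 and 17.7 kb long in het and 41.1, 41.1, 21.0 and 20.3 kb in KO. The E13.5 het list had the shortest peak, and in it 4.25 of the 6.31 kb of Cd209e were covered. Nlrp2 had a mean share of 76.7%, Akr1c6 of 59.2%, Vmn1r63 of 56.1% and Peg10, an imprinted gene derived from a retrotransposon, of 44.4%.

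The 6 largest gene families of the windows, by symbol stem, differed in coverage. Vmn pheromone receptor genes, 23 in the windows and 20 of them on chromosome 7, were covered to 7.29% on average over the lists, and the 328 elsewhere to 29.9%. Most of the 272 kb of these window genes lay in Vmn2r29 to Vmn2r36, 15.6 to 65.3 kb long, which held 0 kb of called sequence in every list. Whether those genes were unmarked or reads could not be placed there was not tested, so the low average does not describe the other Vmn genes. Called sequence was present in 9 of the 23 (39.1%), against 48.8% of all window genes. Within them Vmn1r64 was covered to 100% and Vmn1r65 to 97.2%. Olfr genes, 10 in the windows, were covered to 5.96%, and the 1093 elsewhere to 25.4%. Olfr161 was fully covered in every list. Zfp genes, 23 with 16 on chromosome 7, were covered to 12.4%, against 5.24% elsewhere, but Zfp804b supplied 575 kb of their 983 kb. The 10 Slc genes had 15.8%, against 5.89% elsewhere, most of it in Slc22a26 and Slc22a27. The 10 Mmp genes, all on chromosome 9, went from 4.02% and 4.40% at E13.5 to 11.9% and 19.1% at P3, in het and KO, and the 13 elsewhere had 5.37% over the lists. Mmp12 gave much of that gap, with 5.08 kb covered in the P3 het list against 10.7 kb in the P3 KO list. The 11 Tmem genes had 1.58%, and the 220 elsewhere 5.76%.

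A few very long stretches of the windows held no call in any list. Stretches of at least 100 kb with no peak in any list numbered 33 in the windows and came to 10.8 Mb, 11.4% of their length, against 6.64% of the rest. They were fewer per Mb than in the rest, 0.347 against 0.401, and with the 3 longest left out the remaining 30 came to 5.29 Mb, or 5.91% of the window length that remained. The largest covered chr14:3000001-5926696 and chr14:5928017-7744152, which between them left chromosome 14 nearly bare, and chr7:7201908-10078478, of which the last part lies beyond the window. Of the 45 protein-coding genes in the first of these, 42 have names that begin with Gm or LOC. Many window promoters in such stretches shared sequence with another promoter, and most of these were on chromosome 14. A promoter counted as copied when at least 50% of its 50-base words also occurred in a promoter more than 10 kb away. Of window promoters inside the stretches, 112 of 243 (46.1%, interval 39.9% to 52.4%) were copied, and of those outside 11 of 1026 (1.07%). In the rest of the autosomes the shares were 14.8% and 0.750%. Chromosome 14 alone held 98 of the copied window promoters, among 156, and chromosome 7 was next with 11, among 144. Copies outside promoters were not looked for. None of the 15 window promoters in a peak of all 8 lists was copied, nor any of the 105 in a peak of 1 to 7 lists, which allows a share of up to 3.53% by the Wilson interval. How the authors treated reads that match several places is not given in the sources used here, so an unmarked stretch and one where reads could not be placed cannot be told apart.

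The following pair from chromosome 14 shows such a copy. The promoters of Gm2977 (chr14:3503766-3504065) and Gm3050 (chr14:3743159-3743458), both on the plus strand, are identical over 300 of 300 bases and lie in the longest uncalled stretch.
Gm2977 promoter: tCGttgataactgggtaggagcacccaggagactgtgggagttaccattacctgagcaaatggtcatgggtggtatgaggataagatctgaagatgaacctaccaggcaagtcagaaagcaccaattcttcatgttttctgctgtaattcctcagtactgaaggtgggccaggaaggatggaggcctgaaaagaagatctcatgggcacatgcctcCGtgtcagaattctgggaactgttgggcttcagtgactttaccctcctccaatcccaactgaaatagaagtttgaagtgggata
Gm3050 promoter: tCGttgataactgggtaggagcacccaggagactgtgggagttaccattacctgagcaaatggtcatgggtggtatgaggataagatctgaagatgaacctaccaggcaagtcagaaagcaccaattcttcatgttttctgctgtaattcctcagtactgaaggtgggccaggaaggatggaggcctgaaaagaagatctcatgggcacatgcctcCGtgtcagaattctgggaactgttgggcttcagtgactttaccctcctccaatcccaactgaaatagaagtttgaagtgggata
With these stretches left out of both denominators, the window to rest ratio had a median of 1.33 over the lists in place of 1.26, and without chromosomes 7 and 14 it was 1.35. Both alternatives were chosen after the data had been seen.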

How the data were processed

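H3K9me3 ChIP-seq was made from 16 samples and H3 ChIP-seq from another 16. The deposited files used were 8 peak lists with chromosome, start and end in base pairs (other values than these positions, such as a height, score or p-value, are not in the lists as the authors deposited them). The submitters' processing notes name bcl2fastq 2.20, cutadapt 1.18, Bowtie2 2.3.4.1, deepTools 3.5.0, HOMER 4.10 and build mm10, without roles. The peak caller's settings, the control used and the treatment of replicates are not given in the sources used here. A list was assigned to its group by the stage and genotype in its name and counted as 1 pooled value. Columns that could not be assigned numbered 0.

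Peaks went to the window or the rest by midpoint. Covered length was divided by 5 Mb per window, and by the length from 8 Mb to the last called base in any list. Positions are 1-based on mm10. Gene names, gene bodies and promoter sequences came from RefSeq tables of GRCm38.p6, the same build; entries that start below 3 Mb were left out. Interval functions returned the known values in 20 of 20 simulated lists. Wilson intervals are at 95%. Python 3.11.15, numpy 2.4.6, pandas 2.3.3 and scipy 1.17.1 were used. Read depth is unknown, so peak number and length carry no depth correction. Named regions were, per list, its longest window peak, per stage, the longest peak private to either genotype, and the 8 longest intervals covered in all lists. Named genes were up to 5 per direction with the same sign of het minus KO at all 4 stages, the 10 with the largest covered share among genes of at least 5 kb, the 5 largest gains and losses from E13.5 to P3, and the 6 largest families by symbol stem of at least 5 genes. Promoters named by pattern fall outside that rule and were chosen after their values were seen. The members and lists were chosen with earlier results of these data known. Alternatives changed the window edge, the peaks kept, the denominator, the comparison region, the overlap and the autosomes used. H3 samples were not analysed here.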

Additional observations from a re-analysis of the deposited data

Results flagged for a closer look

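The X chromosome lies outside the comparisons above, and its own first stretch below 8 Mb held called sequence in every list. The het lists had 11, 33, 41 and 28 peaks there in stage order, and the KO lists 20, 33, 46 and 36. They drew attention as signal outside the main measurement. They covered from 0.443% of the stretch in the E13.5 het list to 2.51% in the P0 KO list, whereas the rest of the X was covered to between 3.79% and 9.70%. No base was called before position 5395209.

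The KO to het ratio of covered length in the windows was 1.167 at E13.5 and 0.9278 at E16.5, on opposite sides of 1. With 1 list per group this difference between the embryonic stages was not tested.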

How the results depend on the processing

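No paired analysis was possible because the lists carry no replicate number. Of the window to rest, KO to het and stage to stage ratios, none changed its side of 1 beyond counting error in any alternative run, where counting error treats 1 kb pieces as independent. With the edge at 5 Mb the median window to rest ratio was 1.11, with the edge at 13 Mb 1.30, with the longer 50% of peaks 1.32, from the first called base 1.34, against the distal 5 Mb 1.63, without long uncalled stretches 1.33 and without chromosomes 7 and 14 1.35. Windows with KO above het at E16.5 numbered 2, 0 and 2 of 19 with the edge at 5 Mb, at 13 Mb and with equal peak numbers. With the edge at 5 Mb the steps from E13.5 to E16.5 were 1.51 in het and 1.24 in KO, and those from P0 to P3 0.805 and 0.860. The P0 to P3 step was 0.902 in KO with the edge at 13 Mb, and 0.810 in het and 0.854 in KO with the longer 50%. The median peak length of 2702 bp became 4548 bp with the longer 50%, 3152 bp without peaks of the most common length and 2814 bp with equal peak numbers.

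For the unmatched shares, with the edge at 5 Mb they were 10.01% (E16.5 het) and 17.2% (P0 KO). With the longer 50% they were 6.62%, 13.1% and 14.3% for het at E13.5, P0 and P3, and without peaks of the most common length 5.27% for het at E13.5. Equal peak numbers cut the shortest peaks from the longer list of a stage only. With them the shares were 11.1%, 9.33%, 13.1% and 14.5% in het and 13.45%, 8.06%, 12.1% and 13.8% in KO. With an overlap of at least 50% of the peak they were 9.44%, 13.7%, 14.9% and 16.3% in het and 21.8%, 6.83%, 18.6% and 22.4% in KO. The cause was not tested.

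Leaving out each autosome in turn gave a median window to rest ratio of 1.20 to 1.33. The KO to het ratio was 1.14 to 1.17 at E13.5, 0.925 to 0.934 at E16.5, 0.996 to 1.01 at P0 and 1.04 to 1.06 at P3. Steps in het were 1.64 to 1.71, 1.15 to 1.19 and 0.833 to 0.857, and in KO 1.30 to 1.36, 1.24 to 1.28 and 0.873 to 0.894. Unmatched shares were 7.60% to 8.24%, 10.7% to 11.7%, 10.3% to 11.0% and 11.7% to 12.5% in het, and 16.4% to 17.8%, 5.33% to 5.74%, 15.1% to 15.9% and 15.9% to 17.4% in KO. Bins that kept direction were 88.6% to 89.3%. Unknown depth limits every comparison between lists, and intervals cover counting error only.

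Among alternatives chosen after the data were seen, the P3 to E13.5 ratio of the first 0.5 Mb turned to 1.04 in het without chromosomes 3 and 9, and to 1.183 in het and 1.05 in KO without chromosomes 3, 9 and 18.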
